A study of Homo sapiens with 24 samples.

Results

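To describe the m6A marks that were present at the start of human pancreatic differentiation and were missing later, 1342 m6A-seq peaks were followed from human pluripotent stem cells (hPSC) to islet-like organoids. They were selected on their measured values, as hPSC peaks with at least 50 input reads, with more than 50% of their span covered by peaks of definitive endoderm (DE) on the same strand, and with no base shared with any peak of pancreatic progenitors (PP) or human islet-like organoids (hILO). The 1342 lost peaks made up 11.0% of the 12233 hPSC peaks that met the requirements on input and DE cover. The other 10891 peaks are called kept, of which 8415 overlapped a peak in PP and in hILO, 915 in PP alone and 1561 in hILO alone. The hPSC list held 36659 peaks, 21048 of them with at least 50 input reads, and the 6 lists together held 228472.

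The series holds 24 libraries of the human embryonic stem cell line MEL1 and its derivatives, an IP and an input group of 2 libraries for each of 6 cell populations. Batch 1 held the differentiation series of hPSC, DE, PP and hILO, for which the labels give no genotype, made from mRNA with a SYSY antibody. All groups derive from this line, named MEL1 INSGFP/W in the study's methods, which carries a GFP reporter at the insulin gene. The hPSC were grown on CF1 feeder cells. Batch 2 held wild-type PP (WT PP) and PP from hPSC in which the m6A demethylase ALKBH5 was knocked out (A5-KO PP), made from total RNA with a Millipore antibody, another library kit and an input freed of rRNA. Each population was deposited as 1 peak list that pools its libraries, so no spread between replicates was measured and no test across stages was made.

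N6-methyladenosine is laid on nuclear mRNA by the METTL3-METTL14 complex, mostly at adenosines within the DRACH consensus and often near stop codons and in long exons. Reader proteins of the YTH family bind the mark and shorten the life of many transcripts. In pluripotent cells this is best known for transcripts of core regulators, whose timely decay lets the cells leave the pluripotent state. In m6A-seq a mark is seen as a peak of immunoprecipitated fragments (IP) over the fragments before precipitation (input), and a peak can be called only where the transcript is present. A lost peak can therefore accompany the loss of the transcript or of the mark, and the lists do not measure transcripts outside peaks. In bulk samples, fewer cells of a type and less RNA per cell cannot be told apart.

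Examples of the sequence under lost peaks are shown for genes on which the results below turn, read from GRCh38 on the transcript strand. Capitals mark the GGAC core nearest to the middle of the peak or, where a peak held none, a DRACH match (R stands for a purine, D for any base but C and H for any base but G). TDGF1, the co-receptor of Nodal, held no GGAC in its 50 nt peak. The letters are descriptions of the window and do not locate the methylated base.
VRTN 3UTR, chr14:74359718-74359746: gcaaggagtgtgGGACcaggtggggcaag
PODXL 3UTR, chr7:131500480-131500508: acacagcatggaGGACacagatgactctt
NODAL CDS, chr10:70435759-70435787: gcggtttcagatGGACctattcactgtca
CER1 CDS, chr9:14720130-14720158: gagcatgaagatGGACacatcctacatgc
OTX2 3UTR, chr14:56801532-56801560: gcaacatgaaatGGACaaaccaatctgct
LRP5 CDS, chr11:68347979-68348007: gagccgtgtactGGACagacgtgagcgag
TDGF1 3UTR, chr3:46582185-46582213: tatataagacaaGAACTcccctttttttc

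The stage labels were compared with their marker genes through the peaks of those genes. Of the 5 DE markers, SOX17 and EOMES carried peaks in DE and in no other stage of batch 1, while SOX17 had 3 peaks in the WT PP list and 2 in the A5-KO PP list. FOXA2, CXCR4 and GATA6 carried peaks in PP and hILO as well, and FOXA2 had 3858 input reads in DE, 3183 in PP and 6248 in hILO. Among PP markers, PDX1 and NKX6-1 carried peaks in PP and hILO but not in hPSC or DE, whereas SOX9 and ONECUT1 also had 2 and 5 peaks in hPSC. Of the 5 hILO markers, INS, GCG and SST carried peaks in hILO alone among the stages. CHGA went against its label, since its peaks held 827 input reads for PP, 218 for hPSC and 14 for DE but 25 for hILO, and NEUROD1 had 91 in PP and 2296 in hILO. Of the 5 hPSC markers, POU5F1 and NANOG carried peaks in hPSC and DE and in no later stage. Their input reads were lower in hPSC than in DE, with 11 against 727 for POU5F1 and 121 against 360 for NANOG. LIN28A and L1TD1 still carried peaks in PP and hILO, and DNMT3B had none in hPSC and 1 in PP, with 91 input reads. Markers of other cell types were present as well, with ALB at 611, AFP at 510 and APOA1 at 38393 input reads in the hILO list, and 3 mesenchymal genes at several stages. COL3A1 had 1736 input reads in PP, 1196 in hILO and no earlier peak, COL1A1 had peaks at every stage with most reads, 1133, in DE, and PDGFRA had 1845 in PP and no hILO peak. Input reads inside peaks came to 6987612 for PP, 7970658 for hPSC, 12602604 for DE and 28463998 for hILO. In input PP was thus close to hPSC, and hILO, from which a lost peak was missing as well, was the deepest. IP reads inside peaks came to 30723097 for DE, 30944774 for PP, 77537744 for hILO and 79822815 for hPSC, so in IP PP was well below hPSC. A missing peak was not detected at these depths, which is not the same as an absent mark.

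Loss of the whole gene was told from loss of the site. On the genes of 488 lost peaks (36.4%, 95% Wilson interval 33.8% to 39.0%) no peak was left in PP or hILO, and for the remaining 854 the gene kept at least 1 other peak there. Later peaks were counted over all gene identifiers of the lost peak, and 78.7% of the 854 had a single identifier. Counted on the member's own gene alone, 6 of the 854 had no later peak. Over all 12233 peaks that met the requirements on input and DE cover, 4.31% lay on genes without a peak in PP and hILO. Since a kept peak overlaps a later peak by the rule, this difference is built into the choice of members. The lost peaks lay on 1153 genes, 15.7% of the 7362 genes with such a peak, and 14 could not be matched to a gene of the annotation. Whole-gene loss concerned 401 genes and site-only loss 752 genes. A single lost peak was found on 1007 genes, 122 genes had 2, 19 had 3 and 5 had 4.

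Lists of genes with known roles in the stages were examined, and they were chosen with earlier results of these data known. The share of genes with a lost peak, 15.7% over all genes, was the background for each count. Genes of the exit from pluripotency and of early endoderm held the highest shares. Of the pluripotency genes with a peak that could be lost, 7 of 13 had lost at least 1, and for 5 of these no peak was left on the gene. Of the mesendoderm and definitive endoderm genes it was 5 of 6, with 4 left without a peak. Wnt signalling had 9 of 20, and only SFRP2 among these 9 was without a later peak. The list of Nodal, TGF-beta and BMP signalling had 7 of 24, and it shares TDGF1, CER1, LEFTY1, LEFTY2 and NODAL with the lists above. Cell cycle and DNA replication had 8 of 27. A gene with more peaks has more that can be lost, so the shares were also taken by peak. Over all genes 10.9% of the peaks were lost. For the lists in the order above it was 37.9%, 77.8%, 26.2%, 23.5% and 15.4%, the last being 10 of 65 peaks.

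The neuroectoderm and mesoderm list, with 1 of 3 genes (KDR, a VEGF receptor), also stood above the background, and the remaining lists lay near or under it. Chromatin regulators had 3 of 32, namely CHD8, KDM2B and KMT2D, and each kept other peaks. Among m6A writers, erasers and readers 1 of 16 genes had a lost peak, METTL16, a methyltransferase that acts on U6 snRNA and on the transcript of a methionine adenosyltransferase. FGF and MAPK signalling had 2 of 13 (FGF19 and SPRED1), and adhesion, matrix and cytoskeleton 2 of 14 (CDH1 and SNAI1). The zinc finger genes, named by symbol, had 50 of 320, a share of 15.6%. The 2 endocrine genes with a peak that could be lost kept it, and no pancreatic progenitor or hepatic gene had such a peak. The lists are short and the counts have no test.

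Among pluripotency genes, VRTN held 3 lost peaks that covered its CDS and 3UTR. The peak around the middle of the CDS (chromosome 14, 74357956 to 74358355) had 1299 input reads in hPSC and 1743 in DE, with log2 enrichments of 1.39 and 1.30. The log2 enrichment of IP over input is the deposited estimate, scaled separately in each list. Input reads are counted over each list's own peak, and since a DE peak can be longer or shorter than the hPSC peak, log2 differences of input per base are given where the lengths change the picture. The peak in the 3UTR had 1054 input reads in hPSC and 3170 in DE, and the upstream CDS peak 993 and 940. The input in DE was thus close to or above that in hPSC at all 3, and no VRTN peak was found in PP or hILO. In WT PP 100% of the upstream peak was covered again, by a peak with 275 input reads.

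ZIC2, a zinc finger transcription factor of pluripotent cells and early embryos, held 2 lost peaks and no later peak. The larger one (CDS, chromosome 13, 99982659 to 99983058) had 969 input reads in hPSC and 1680 in DE, and the smaller one 54 and 63. The log2 enrichment of the larger peak was 1.63 in hPSC and 1.62 in DE. Neither ZIC2 peak was covered in WT PP or A5-KO PP.

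TDGF1 stood apart from these genes in its input. Its lost peak (3UTR, chromosome 3, 46582182 to 46582231) had 5203 input reads within 50 nt in hPSC and 49 in the overlapping DE peak. The input per base was 161 times that of the other hPSC peaks of the gene in the median, and the peak matched 3 gene identifiers. ZFP42, a zinc finger gene used as a marker of pluripotency, had only 75 input reads in hPSC and 256 in DE in its CDS peak (chromosome 4, 188003220 to 188003944). No ZFP42 peak was left in PP and hILO of batch 1. In batch 2, however, 96.6% of the peak was covered in WT PP, with 1412 input reads, and as much was covered in A5-KO PP, with 89.

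PODXL and SALL4 lost a site and kept the gene. PODXL encodes podocalyxin, the sialomucin that carries the TRA-1 epitopes of hPSC. Its lost peak, 4790 nt after the stop codon in the 3UTR (chromosome 7, 131500387 to 131500536), had 3481 input reads in hPSC and 6909 in a longer DE peak, and the log2 input per base differed by 0.11, as at kept peaks in the median. PP and hILO each held 3 other PODXL peaks, with 286 and 527 input reads in all, and the nearest of them abutted the lost peak. SALL4, a zinc finger factor of pluripotent and germ cells, lost 1 CDS peak (chromosome 20, 51790362 to 51790536) with 323 input reads in hPSC and 312 in DE, while 6 SALL4 peaks were found in PP and 5 in hILO. For SALL4 85.7% of the lost span was covered in each list of batch 2, with 947 input reads in WT PP, and A5-KO PP had 1259.

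Of the mesendoderm genes with a lost peak, CER1, LEFTY2, NODAL and LEFTY1 had more input in DE than in hPSC, and OTX2 had not. CER1, a secreted antagonist of Nodal, BMP and Wnt, had 70 input reads in hPSC and 86311 in DE in the peak at its stop codon (chromosome 9, 14720024 to 14720248). LEFTY2, another secreted Nodal inhibitor, had 277 and 19898 input reads in its CDS peak (chromosome 1, 225937581 to 225937755). NODAL itself had 495 and 7540 in its 3UTR peak (chromosome 10, 70432411 to 70433010) and 230 and 2336 in the CDS. Their log2 enrichments in hPSC and DE were 1.56 and 2.08 for CER1, 1.30 and 1.52 for LEFTY2, and 2.55 and 2.23 for the NODAL 3UTR peak. For CER1, LEFTY2 and NODAL the input was thus far higher in DE than in hPSC, and no peak was called on them in PP or hILO.

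OTX2, a homeobox gene of anterior tissues, showed another course. Its 2 lost peaks in the 3UTR had 165 and 61 input reads in hPSC and 46 and 60 in DE, and log2 enrichments of 2.40 and 2.52 in hPSC. LEFTY1, a near copy of LEFTY2, had 2 peaks left under its own identifier in PP, with 950 input reads, and 2 in hILO, with 573, each shared with overlapping genes, and lost the peak 407 nt after its stop codon (chromosome 1, 225886282 to 225886356), which had 145 input reads in hPSC and 7858 in DE. Reads of LEFTY1 and LEFTY2 can be placed on either gene where the copies are identical, since 1 alignment per read was kept. CER1 was covered in full in WT PP, with 67 input reads, and also for A5-KO PP, with 536, whereas NODAL and LEFTY2 were covered in neither. GDF3, a TGF-beta family ligand, had 126 input reads in hPSC and 2 in DE at its stop codon.

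**Figure D1:**
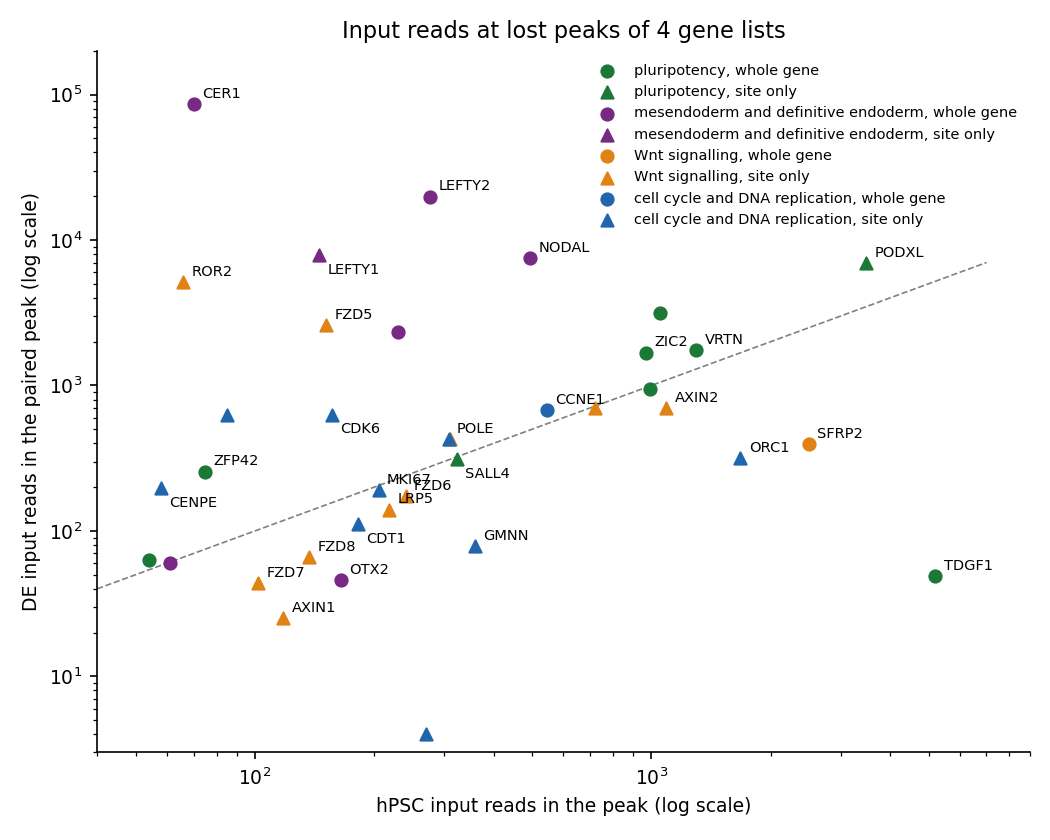
Input reads of lost peaks in hPSC (horizontal axis) and in the DE peak that shared most bases (vertical axis), both on log scales, for the reported genes of 4 gene lists in colours. Circles are peaks on genes with no peak left in PP and hILO, triangles those on genes with other peaks left, and the dashed line marks equal reads, which are not per base. For genes with several lost peaks the one with most input is named. CER1, LEFTY2 and NODAL lie far above the line, at 86311, 19898 and 7540 DE reads, and TDGF1 far below it, at 49.

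In the Wnt pathway 8 of the 9 genes with a lost peak had another later peak. Over all genes it was 752 of 1153, and for cell cycle genes 7 of 8, so this was not particular to the Wnt list. The list covers receptors, the destruction complex and secreted inhibitors. AXIN2, a negative regulator that Wnt signalling itself induces, held 3 lost peaks with 1091, 722 and 311 input reads in hPSC, and under its own identifier kept 1 peak in PP with 32 input reads and 1 in hILO with 39. 2 of its lost peaks shared 1 DE peak of 699 reads, so their DE values are not separate measurements. Of these, the peak of 1091 reads lay within the span of the peak of 722 reads. Each lost AXIN2 peak matched 2 or 3 gene identifiers. AXIN1, its constitutive relative, lost a CDS peak of 118 input reads in hPSC and 25 in DE. The frizzled receptors FZD5, FZD6, FZD7 and FZD8 lost 1 peak each, with 151, 240, 102 and 137 input reads in hPSC. In DE the FZD5 peak had 2599 input reads but was longer, with a log2 input per base higher by 1.40 than in hPSC, and the other 3 had 174, 44 and 66 input reads.

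The co-receptors LRP5 and ROR2 also lost 1 CDS peak each. The LRP5 peak (chromosome 11, 68347932 to 68348131) had 218 input reads in hPSC and 140 in DE, and the gene kept 3 peaks in PP and 3 in hILO. The ROR2 peak, 50 nt long, had 66 input reads in hPSC, 5155 in a longer DE peak, a log2 input per base higher by 4.46 in DE and a log2 enrichment of 2.65 in hPSC. SFRP2, a secreted frizzled-related protein, was the gene without a later peak. Its CDS peak (chromosome 4, 153781416 to 153781690) had 2495 input reads in hPSC and 397 in DE, and was covered in full in WT PP with 201.

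Of the cell cycle genes, CCNE1, which encodes cyclin E1 and drives entry into S phase, was the gene with no peak left. Its CDS peak of 75 nt had 546 input reads in hPSC and 677 in DE. ORC1, the largest subunit of the origin recognition complex, lost a CDS peak of 1676 input reads in hPSC and 316 in DE and kept 2 peaks in PP and 1 in hILO. GMNN, the inhibitor of replication licensing, lost a peak at its stop codon (359 and 79 input reads) that abutted a later peak of the gene. Its partner CDT1 lost a 3UTR peak of 182 and 112 input reads. MKI67, the proliferation antigen, lost 1 short peak of 205 and 190 input reads but kept 21 peaks in PP and 16 in hILO. CDK6 and POLE lost 2 peaks each, and CENPE, a kinetochore motor, lost 1. BMPR2, a BMP receptor, lost a 5UTR peak of 282 input reads in hPSC and 202 in DE and kept 7 peaks in PP.

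Among the lost peaks with the most input reads on genes without a later peak were those on WFDC3, LRRTM4, LINC02972, PIPOX, TDGF1, DAPK3, MT-ND1, THY1 and HLA-DOA. WFDC3, of the whey acidic protein family, had 11215 input reads in hPSC and 21055 in DE. Its peak was well covered in both early stages. For the other 8 genes the DE input was lower. PIPOX, a peroxisomal oxidase, had 6008 and 42, LINC02972 had 6015 and 85, MT-ND1, a mitochondrial subunit of complex I, had 4824 and 74, and HLA-DOA had 3489 and 7. THY1, the surface glycoprotein CD90 used as an hPSC marker, had 3489 input reads in hPSC and 571 in DE over 400 nt of its 3UTR.

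On genes with other peaks left, the lost peaks with the most input included those on CACNA2D3, CUTALP, PLEKHM1P1, TSPAN14, COL6A1, SACM1L, C14orf39, PODXL and TYRO3. CACNA2D3, a calcium channel subunit, had 39107 input reads in hPSC and 3123 in DE. CUTALP and PLEKHM1P1 are pseudogenes, with 11359 and 10974 input reads in hPSC and 67 and 82 in DE, and their reads may be shared with related copies. Of these genes COL6A1, a chain of collagen VI, had more reads in DE, 22439 against 4478, and a log2 input per base higher by 1.90. PODXL, described above, also had more reads in DE, 6909 against 3481, but in a longer peak. Several of these peaks were local spikes of input. At CUTALP the hPSC input per base was 678 times the median of the other hPSC peaks of the gene, at TSPAN14 226 times and at LRRTM4, among the genes above, 201 times.

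Such spikes were counted over all members. Of the lost peaks with another hPSC peak on the gene, 172 of 1140 (15.1%, 13.1% to 17.3%) had at least 10 times the input per base of those other peaks, against 718 of 9508 kept peaks (7.55%, 7.04% to 8.10%). Whether repeats or reads with several possible alignments contribute was not tested. The values of single peaks with many hPSC reads and few DE reads are therefore given as counts of the pooled libraries only.

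LINC00689, HHLA1, COL6A2, FIRRE and PCDHGC3 held 4 lost peaks each. LINC00689 and HHLA1 had no peak left in PP and hILO. The longest HHLA1 peak spanned others of the gene, which shared with it 1 DE peak of 162 input reads. Each HHLA1 peak matched 2 or 3 gene identifiers. The 4 LINC00689 peaks, with 1793, 745, 740 and 262 input reads in hPSC, lay within 1 DE peak of 808 input reads. FIRRE, a nuclear lncRNA, kept 1 peak in PP and 1 in hILO. COL6A2, the partner chain of COL6A1, had between 152 and 1551 input reads in its 4 lost peaks in hPSC and between 1177 and 8584 in DE, and only 2 peaks with 16 input reads in all were left in PP. The PCDHGC3 peaks matched 22 gene identifiers of the overlapping protocadherin gamma cluster and cannot be assigned to 1 of them. In all, 64 lost peaks shared their DE peak with another lost peak.

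The highest log2 enrichments in hPSC among lost peaks were those of FBXL18 (3.91), ZNF808 (3.28), ZNF329 (3.13), CRAT (3.06) and MYO15B (2.96). All 5 genes kept another peak. The enrichment in DE was lower for each, at 2.12 for FBXL18, 2.15 for ZNF808, 2.00 for ZNF329, 1.26 for CRAT and 1.63 for MYO15B. Since these were picked for their height in hPSC, a lower second value was favoured by the choice. Except for CRAT, with 748, they had between 54 and 65 input reads in hPSC, where the counting error of the log2 enrichment was between 0.18 and 0.20.

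The lost peaks were of lower enrichment at the start. Their median log2 enrichment in hPSC was 1.62 (95% interval 1.58 to 1.65), with 1.70 for whole-gene loss and 1.56 for site-only loss, against 1.78 (1.77 to 1.79) for kept peaks. In DE the medians were 1.57 for lost and 1.75 for kept peaks. From hPSC to DE the log2 enrichment differed by a median of −0.060 (−0.083 to −0.029) for lost and −0.064 (−0.071 to −0.056) for kept peaks, and these intervals overlapped. The share of lost peaks was 18.3% below a log2 enrichment of 1.25 and 6.96% at 2.5 or more. With hPSC input it went from 13.9% for peaks of 50 to 100 reads down to 7.87% (6.52% to 9.49%) for those of 500 to 1000, and stood at 10.6% (8.66% to 12.9%) for peaks with at least 1000.

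The input already differed in DE. The log2 input per base in DE minus that in hPSC had a median of −0.81 (−1.02 to −0.46) for peaks on genes without a later peak, −0.16 (−0.29 to −0.027) for site-only loss and 0.11 (0.070 to 0.14) for kept peaks. Input lower by at least 1 on the log2 scale than the kept median was found for 48.4% of the peaks with whole-gene loss, 34.7% of those with site-only loss and 28.6% of the kept peaks. Input higher by at least 1 was found for 20.1%, 22.8% and 23.5%. The group with whole-gene loss thus held peaks with lower input in DE, as on HLA-DOA, beside peaks with higher input, as on CER1. At HLA-DOA the hPSC input per base was 51.7 times the median of the other hPSC peaks of the gene, so this peak is among the spikes.

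Lost peaks were short and rich in GC. Their median exonic length was 175 nt against 250 nt for kept peaks. Of the peaks under 100 nt, 26.3% (24.0% to 28.9%) were lost, and of those from 400 to below 1000 nt 4.00% (3.34% to 4.79%). A short span has fewer bases with which to meet a later peak, so the rule favours short peaks. The median GC content was 54.7% for lost and 47.3% for kept peaks. At 60% GC or more 21.1% (19.4% to 22.8%) were lost, against 6.90% (5.96% to 7.96%) below 40%. Base composition and length moved with the loss, and their part in it was not tested.

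The same held within a gene. On 454 of the 752 genes with site-only loss another peak that met the requirements was kept. In 364 of these 454 genes the lost peaks were shorter in the mean than the kept ones, with a median difference of −1 on the log2 scale. In 272 of 454 the log2 enrichment in hPSC was lower, by a median difference of −0.11 (−0.19 to −0.068). The GC content was lower in 181 of 454, and the median difference was 2.37 percentage points (1.52 to 3.20) in the direction of the lost peak.

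By position, 992 lost and 9377 kept peaks could be placed on the longest coding isoform. Of the lost peaks 7.96% (6.44% to 9.82%) lay in the 5UTR, 43.2% (40.1% to 46.3%) in the CDS and 48.9% (45.8% to 52.0%) in the 3UTR. Of the kept peaks it was 3.75% (3.39% to 4.16%), 52.0% (51.0% to 53.0%) and 44.3% (43.3% to 45.3%). Read the other way, 18.3% of 5UTR peaks, 8.08% of CDS peaks and 10.5% of 3UTR peaks were lost. With any overlap in place of the midpoint the 3UTR shares were 53.3% for lost and 53.2% for kept peaks, so the pooled difference in the 3UTR was not seen with that placement.

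The shares by position were set beside base composition. Among peaks with at least 55% GC, 10.3% (8.02% to 13.3%) of the lost and 8.12% (7.14% to 9.22%) of the kept peaks lay in the 5UTR, and 20.1% of 5UTR, 15.7% of CDS and 16.8% of 3UTR peaks were lost. From 45% to below 55% GC 20.4% (13.6% to 29.4%) of the 5UTR peaks were lost, against 5.63% (4.57% to 6.93%) of CDS and 9.09% (7.71% to 10.7%) of 3UTR peaks. The 5UTR share was thus above those of the CDS and 3UTR in this range, and at 55% GC or more the 5UTR interval (15.8% to 25.4%) overlapped those of the CDS and 3UTR. Below 45% GC 5 of 65 5UTR peaks (7.69%, 3.33% to 16.8%), 3.84% (3.11% to 4.74%) of the CDS peaks and 7.51% (6.42% to 8.75%) of the 3UTR peaks were lost. At low GC the 3UTR held 62.7% (56.4% to 68.6%) of the lost and 46.0% (44.5% to 47.6%) of the kept peaks.

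Whole-gene and site-only losses differed in position, but they also differ by rule, since site-only loss needs another later peak on the gene. Median transcript lengths were 3238 nt for whole-gene loss, 4358 nt for site-only loss and 4628 nt for kept peaks. Median 3UTR lengths were 1126, 1743 and 1992 nt in the same order. Whether these lengths bear on the shares was not tested. The 3UTR held 57.8% (52.2% to 63.2%) of the peaks with whole-gene loss and 44.9% (41.2% to 48.6%) of those with site-only loss. Counting any overlap it was 65.6% (60.1% to 70.7%) and 47.8% (44.1% to 51.6%), which lay on either side of the 53.2% of kept peaks. Within 200 nt of the stop codon, the site where m6A is typically densest, lay 28.6% (23.8% to 33.9%) of the former, 17.0% (14.3% to 20.0%) of the latter and 24.5% (23.6% to 25.3%) of the kept peaks. These intervals cover counting error only. Over 500 nt after the stop codon lay 21.1%, 24.1% and 19.2%.

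The kind of gene differed as well. Since site-only loss needs another later peak by rule, the number of peaks per gene enters this split, and its part was not tested. Of the peaks with whole-gene loss 24.6% (21.0% to 28.6%) lay on lncRNA genes, of those with site-only loss 7.14% (5.601% to 9.069%) and of the kept peaks 5.44% (5.03% to 5.88%). In all, 23.4% (20.6% to 26.5%) of the lncRNA peaks that could be lost were lost, against 9.94% (9.40% to 10.5%) of those on protein-coding genes. LINC02972 and LINC00689 are examples. Pseudogenes held 6.76% of the peaks with whole-gene loss and 2.13% of the kept peaks. Zinc finger genes held 1.43% (0.697% to 2.93%) of the peaks with whole-gene loss, 6.09% of those with site-only loss and 5.50% (5.09% to 5.94%) of the kept peaks. Chromosome 19 held 9.39% of lost and 6.59% of kept peaks.

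Over the 854 peaks with site-only loss, the median number of peaks left on the gene in PP and hILO together was 4, with genes of several lost peaks counted once for each. For 74.2% of these peaks the gene had a peak in both, in 12.4% in PP alone and in 13.4% in hILO alone. The nearest later peak was a median of 425 exonic nt away (350 to 475, n = 846). It was within 100 nt for 21.6% (18.99% to 24.53%) and over 1000 nt away for 29.6% (26.6% to 32.7%), so that adjacent and distant sites were both among them. It lay on the 3′ side of the lost site in 55.04% (51.68% to 58.34%). At the kept peaks of these genes the log2 input per base in PP minus that in hPSC had a median of −0.84 (−1.07 to −0.61), against −0.53 (−0.59 to −0.47) at kept peaks of other genes. In hILO the values were 0.18 (−0.015 to 0.41) and 0.50 (0.45 to 0.56).

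The consensus was present but less frequent in lost peaks, which are shorter. At least 1 DRACH match was found in 91.4% (89.8% to 92.8%) of lost and 96.6% (96.2% to 96.9%) of kept peaks, and at least 1 GGAC in 59.3% (56.7% to 61.9%) and 69.5% (68.6% to 70.3%). Per kb of exonic sequence DRACH numbered 21.1 on the transcript strand and 15.6 on the opposite strand in lost peaks, and 23.1 and 15.6 in kept peaks. GGAC, which overlaps DRACH where the next base is A, C or T, numbered 5.82 and 3.49 per kb in lost peaks and 5.19 and 2.81 in kept peaks. GGAC per base was thus not lower in lost peaks, whose GC content was higher.

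The WT PP and A5-KO PP lists of batch 2 were not used to choose the members and show how often the sites were found again. Over all 12233 peaks that met the requirements, 67.0% were found in WT PP, meaning that more than 50% of the span was covered on the same strand, and 64.2% were found in A5-KO PP. Of the lost peaks 45.8% (43.2% to 48.5%) were found in WT PP and 42.3% (39.71% to 44.99%) were found in A5-KO PP, against 69.6% (68.8% to 70.5%) and 66.8% (66.0% to 67.7%) of the kept peaks. Both lists covered 29.4% of the lost and 59.2% of the kept peaks, and neither covered 41.2% and 22.7%. Batch 2 differed in antibody, RNA and kit, so batch and experiment cannot be told apart.

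**Figure D2:**
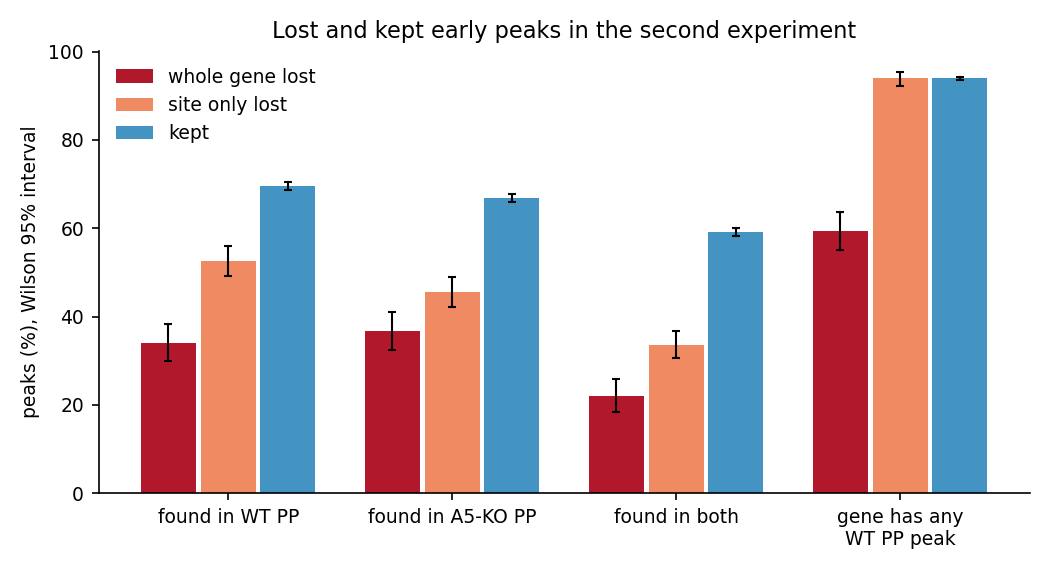
Percent of peaks with whole-gene loss, site-only loss and kept peaks that were covered over more than 50% of their span in the WT PP list, the A5-KO PP list and both, and percent on genes with any WT PP peak. Whiskers are Wilson 95% intervals. In WT PP the bars stand at 34.02%, 52.6% and 69.6%.

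The share was also lower than for kept peaks within ranges of length and GC. From 100 to below 200 nt 42.3% (38.0% to 46.7%) of lost and 53.7% (51.6% to 55.7%) of kept peaks were found in WT PP, and from 200 to below 400 nt 54.9% (50.0% to 59.7%) and 73.9% (72.6% to 75.2%). At 55% GC or more it was 45.5% and 63.2%, and below 45% GC 45.9% and 73.4%.

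Whole-gene loss in batch 1 was often not seen in batch 2. A peak of any kind was present in WT PP on the genes of 59.4% (55.01% to 63.69%) of the peaks with whole-gene loss, and a WT PP peak of at least 50 input reads for 41.0% (36.7% to 45.4%). For site-only loss the shares were 94.0% and 85.8%, and for kept peaks 93.9% and 84.5%. The site itself was found in WT PP for 34.02% (29.95% to 38.33%) of the peaks with whole-gene loss and 52.6% (49.2% to 55.9%) of those with site-only loss. ZFP42, CER1, SFRP2 and SNAI1 were among the former, and ZIC2, NODAL and LEFTY2 were not. SNAI1, a repressor of E-cadherin, had 292 input reads in WT PP, against 51 in hPSC and 327 in DE.

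Between the genotypes, whole-gene losses were found in WT PP in 34.02% of cases, while A5-KO PP held 36.7% (32.5% to 41.0%) of them, and site-only losses in 52.6% and 45.6% (42.2% to 48.9%). Kept peaks were found slightly less often in A5-KO PP too, and the difference between the genotypes has no replicate check. These lists also differed in size and depth, with 43312 peaks and a median of 80 input reads in WT PP. A5-KO PP had 55219 peaks and a median of 33. Some covering peaks had hardly any input, as at PODXL in WT PP, with 0 input and 47 IP reads. HLA-DOA was covered in A5-KO PP, with 1434 input reads, and not over more than 50% of the span in WT PP.

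At the borders of the rule, 11 members had 50 input reads and 16 peaks that met the other requirements had 49. The lowest DE cover of a member was 51.2%, and 141 peaks that met the other requirements stood at 50%. Of the members, 47 directly abutted a PP or hILO peak and 151 lay under 100 nt from one. The smallest overlap that made a peak kept was 8 bases, and 572 kept peaks had under 50% of their span covered in PP and in hILO alike.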

How the data were processed

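Per the labels and methods, the authors trimmed the reads (fastp), placed each read once on GRCh38 (HISAT2) and called peaks per population with exomePeak2. For each peak they deposited 1 pooled read count for IP and 1 for input, a log2 enrichment and a p-value. An adjusted p was deposited as well and was not used here. Sums and means over libraries cannot be told apart in the pooled counts. Library totals were not used here, and depth is described by input and IP reads inside peaks.

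Overlaps were computed on spans as deposited. Exonic length, GC, motifs and position used GENCODE 44 exons of the gene within the span, and a whole-gene loss required that no identifier of the peak had a peak in PP or hILO. Each member was paired with the DE peak sharing most bases. Input per base is input reads plus 1 divided by exonic length, and the counting error added 0.5 to each count. Shares carry Wilson 95% intervals, medians order-statistic 95% intervals. Both cover counting error only, since PCR copies are not independent molecules and peaks are not replicates. Python 3.11.15, pandas 2.3.3 and scipy 1.17.1 were used, and overlap and placement were tested on simulated data.

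The members and gene lists were chosen with earlier results of these data known. Named genes were the 10 members with most hPSC input reads in each class of loss, the 5 genes with most members, the 5 members with highest hPSC enrichment, and members on the gene lists. Members without a gene symbol were skipped. Some of these are not reported here. Comparisons within ranges of length and GC and with other peaks of the same gene were added after seeing the data. Later peaks on the member's own gene alone were counted after seeing the data. Alternatives covered the overlap rule, strand, input minimum, thresholds and placement.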

Additional observations from a re-analysis of the deposited data

How the results depend on the processing

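No paired analysis was possible because every deposited value is pooled over the libraries of its group. No replicate could be left out either, and agreement between replicates was not tested. Stricter limits admit fewer peaks by construction, and for other shifts the cause was not tested. Alternatives were run for the number of lost peaks, for their shares on genes with no peak left, in the 3UTR, found in WT PP and found in A5-KO PP, and for their median difference in log2 enrichment from hPSC to DE, which was below 0 under each. The comparisons of lost with kept peaks in length, GC, gene type, gene lists and enrichment have no alternative. The number of lost peaks was 870 with at least 100 input reads and 770 at p below 1e-10 in hPSC, and between 978 and 1999 under the other alternatives. The share on genes with no peak left was 33.2% with any base shared with DE, 39.1% with 80% of the span covered, 41.7% at p below 1e-10, 31.4% when PP and hILO peaks needed an IP/input ratio of 2 or more, and 40.8% without members under 100 nt from such a peak. The share found in WT PP was 49.7% with that ratio, 50.4% for spans within 1 exon and 54.0% counting any shared base, and in A5-KO PP 45.8% with that ratio and 52.6% counting any shared base. The 3UTR share was 56.1% within 1 exon, against 53.2% for kept peaks there, and 53.3% counting any overlap. The median difference in log2 enrichment from hPSC to DE was −0.19 at p below 1e-10. Depth limits what a missing peak shows, and input inside peaks was lowest in PP and nearly as low in hPSC. IP reads inside peaks differed more, with 30944774 in PP and 79822815 in hPSC.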
